A study of Mus musculus with 8 samples.

Results

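Oligodendrocyte precursor cells were examined in the aging hippocampus through 7 genes known from them, Pdgfra, Cspg4, Gpr17, Olig1, Olig2, Sox10 and Nkx2-2. Several of these genes are also expressed in other cells, so their values are no direct measure of precursors. The genes were chosen by name, but with earlier results of these data known. All their probes were taken, which gave 8 probes for 7 of the 19751 genes that could be named on the array. RNA of the hippocampus, dissected by hand, was compared between wild type C57BL/6J mice of 3 months (3M, 4 arrays) and of 29 months (29M, 4 arrays). Neither group had been treated, and, per the study's methods, aged animals were bought old and kept until the age studied. Each sample was labelled with the dye Cy3 and hybridised to 1 array, on which the brightness of a spot reports the abundance of 1 transcript. The labels do not say whether each sample came from 1 animal, so the p-values given here measure the spread between these samples. The tissue is a mixture of cells, and fewer cells of a type and less RNA per cell cannot be told apart in it.

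Oligodendrocyte precursors are the dividing glia of the adult brain from which myelinating oligodendrocytes arise. They respond to platelet-derived growth factor through the receptor Pdgfra and carry the proteoglycan NG2, the product of Cspg4, on their surface. Olig1 and Olig2, which are basic helix-loop-helix factors, and the HMG-box factor Sox10 are expressed in precursors and in oligodendrocytes. Nkx2-2 is a homeodomain factor that favours differentiation and represses Pdgfra. Gpr17 is a G protein-coupled receptor that appears in precursors committed to differentiate and is switched off again before myelin is made, and it holds back the last step of maturation.

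All 8 probes were well above background on all 8 arrays, and none of their spots was an outlier. Between 76.2% and 85.0% of the spots of an array were well above background. One array, replicate 1 of 3M, was marked for evaluation by the extraction software. The arrays lay on 3 slides, each with both age groups. Neuron markers, read as a check of the tissue, were well above background on all arrays in 14 of 14 cases, among them Snap25 and Syt1, which act in transmitter release. The same held for 9 of 9 markers of choroid plexus and ependyma, so this check does not tell tissues apart. The mean centred log2 intensity of those 9 markers ran from -0.89 to 0.46 in 3M and from -0.17 to 0.14 in 29M.

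Gpr17 was the only one of the 7 genes that was called changed in the aged hippocampus, and it fell to 0.503 of its young level. A call needed a limma adjusted p under 0.1, taken over all probes, together with a log2 change of 0.5 or more in either direction. By this rule 1 of the 7 genes was lower and 0 were higher in 29M (2 had an unadjusted limma p under 0.05), each gene being read by the probe whose mean over the arrays was highest. Of all 19742 genes tested in the same way, 0.699% were called lower, 1.58% higher and 2.27% in either direction, and 17.1% had an unadjusted p under 0.05. Counted by probe, 1 of 8 was lower, beside 0.817% lower, 1.25% higher and 2.06% in either direction over all 39408 probes tested. The median change of the 7 genes was 0.19 on the log2 scale, beside 0.01 for all genes, and their mean change was 0.03. A positive sign was found in 6 of the 7, among them Pdgfra at 0.002, beside 52.8% of all genes. The median of the 7 was 0.10 without replicate 1 of 3M and 0.09 when processed signals were set relative to the 75th percentile, and at most 0.26 in the other settings.

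The scanner intensity of Gpr17 was 14102 in replicate 1, 12076 in replicate 2, 10871 in replicate 3 and 12878 in replicate 4 of 3M. In 29M it was 6144, 7702, 8339 and 3839 in replicates 1 to 4. The dimmest young array was therefore brighter than the brightest old one, before any normalization. After variance stabilising normalization the log2 intensities of 3M were 13.77, 13.56, 13.34 and 13.72, and those of 29M were 12.58, 12.80, 13.06 and 11.98. The groups did not overlap, which held for 11.5% of all genes, with 29M lower in 5.22% and higher in 6.33%. The mean of Gpr17 was 13.60 ± 0.20 (SD, n = 4) in the young and 12.61 ± 0.46 (SD, n = 4) in the old arrays. This is a log2 change of -0.99 with an SE of 0.21 and a 95% interval from -1.47 to -0.52 (limma adjusted p 0.0564). The spread in 29M came mainly from replicate 4, which was lowest, and replicate 3, which was highest.

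**Figure D1:**
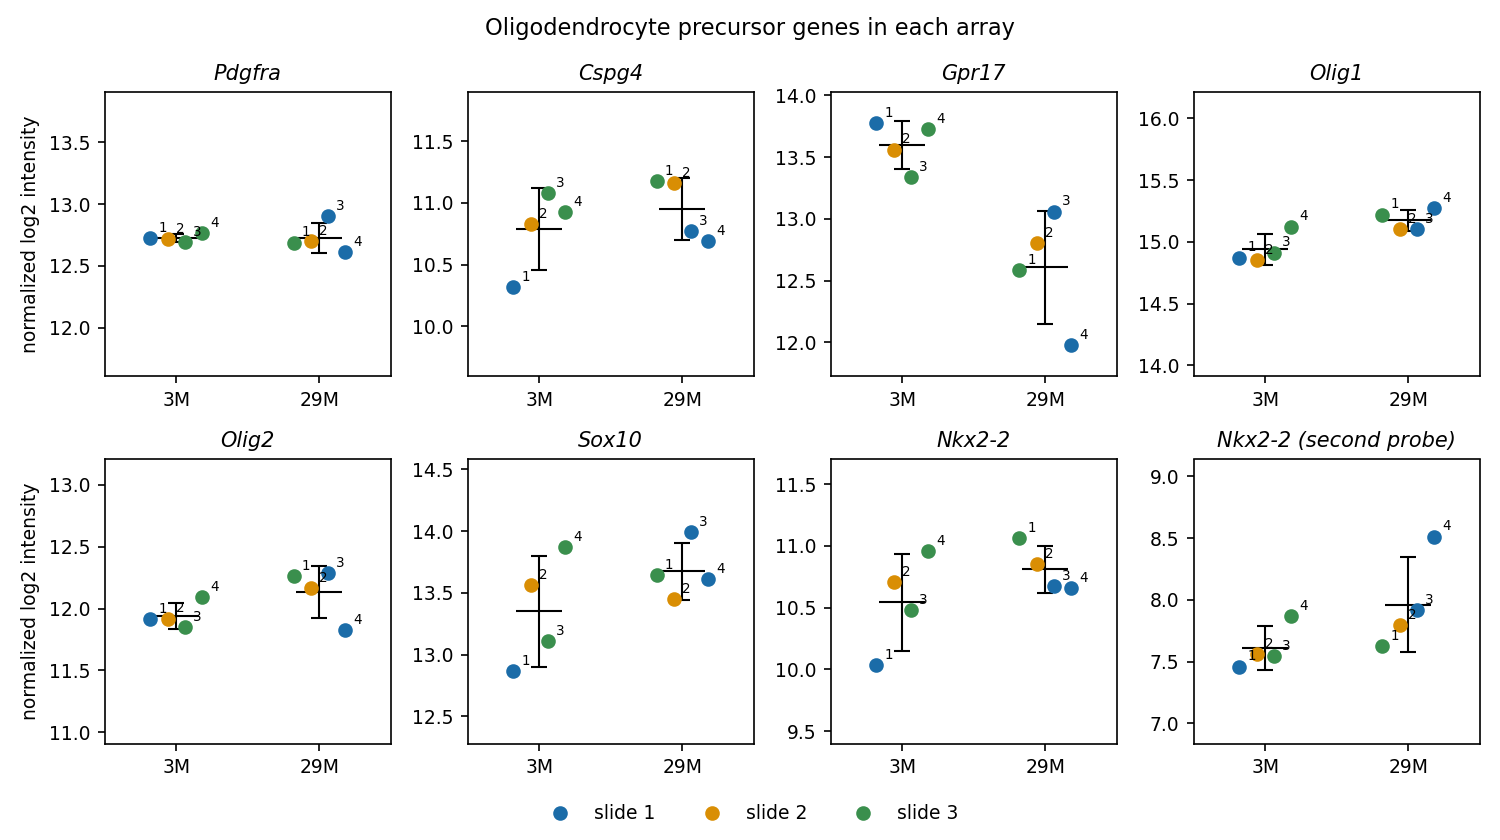
Normalized log2 intensity (vertical axis, every panel spanning the same range) of the 8 probes in each array, with 3M on the left and 29M on the right. Points are arrays, numbered by replicate and coloured by slide, and the black marks give the mean ± SD (n = 4). Only the panel of Gpr17 shows groups that do not overlap, with 11.98 to 13.06 in 29M below 13.34 to 13.77 in 3M.

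The fall of Gpr17 (probe A_51_P170463) was seen on each slide taken alone, with differences of -1.26, -0.76 and -0.95 on slides 1, 2 and 3. A slide held only 1 or 2 arrays of a group. Since the age groups did not overlap, the sign on each slide was fixed in advance and adds no support. The change of Gpr17 was between -1.14 and -0.72 in 20 alternative settings. Where arrays were left out the sign was all but fixed in advance too, for the same reason. The call was not kept in every setting. It was lost in 6 of the 20 settings, where the limma adjusted p rose to between 0.116 and 0.152, namely when slide entered as a fixed term (0.124), under the replicate block (0.152), and without replicate 2 (0.148) or 4 (0.120) of 3M or replicate 1 (0.146) or 2 (0.116) of 29M. It was kept without the lowest array, replicate 4 of 29M (log2 change -0.78, limma adjusted p 0.0648), and without that array and replicate 1 of 3M together (-0.72, 0.0626). Gpr17 was measured by 1 probe, so no other probe could be set beside it. In the RefSeq annotation Gpr17 lies within the span of Lims2, and the probe of Lims2, which encodes an adaptor protein of focal adhesions, had a log2 change of -0.03 (limma adjusted p 0.909).

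**Figure D2:**
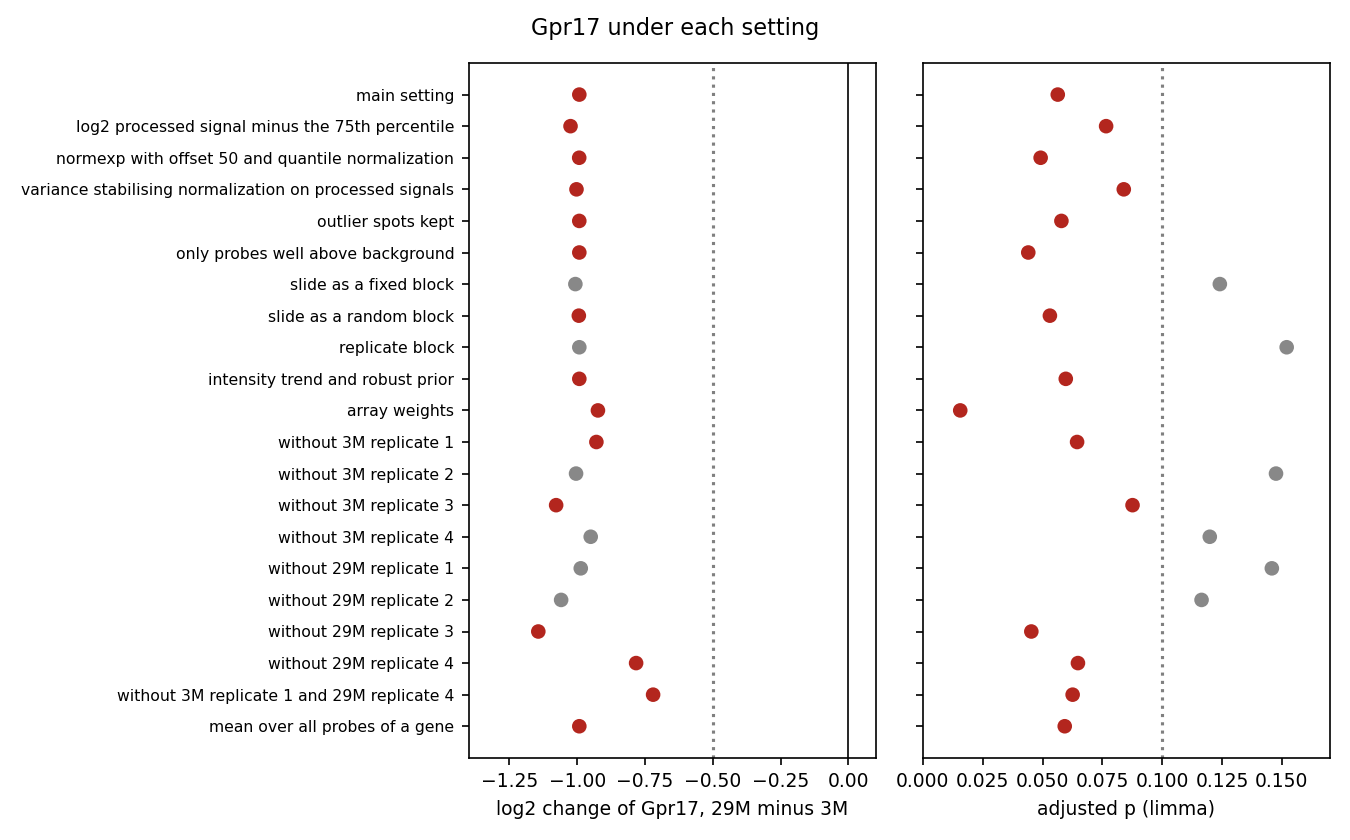
Log2 change of Gpr17 in 29M against 3M (left) and its limma adjusted p (right) under the main setting and 20 alternatives, 1 point per setting. Red points pass both thresholds (dotted lines) and grey points do not. All changes lie between -1.14 and -0.72, while 6 points lie to the right of an adjusted p of 0.1.

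Of the surface receptors of precursors, Pdgfra was the most even of the 7 genes. It had log2 intensities of 12.73, 12.72, 12.69 and 12.77 in 3M and of 12.69, 12.70, 12.90 and 12.61 in 29M. The 4 old arrays lay on both sides of the young ones, and the change came to 0.00 (SE 0.08) with a limma adjusted p of 0.995. Its 95% interval, -0.19 to 0.19, held no change as large as the threshold of 0.5. The Pdgfra probe was printed 10 times on each array and the 10 spots were averaged, while each other member probe had 1 spot. Within an array the 10 spots of Pdgfra had an SD between 0.209 and 0.277. Spot differences that recur on every array were not separated from random spread in this SD. It is therefore no measure of the array to array SD of the probes with 1 spot, which was 0.085 to 0.461.

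Cspg4 had log2 intensities of 10.32, 10.83, 11.08 and 10.93 in 3M and of 11.17, 11.16, 10.77 and 10.69 in 29M. The groups overlapped, with the lowest value in replicate 1 of 3M, and the change was 0.16 (SE 0.18, 95% interval -0.24 to 0.56, limma adjusted p 0.699). The change was 0.01 without that array and between 0.08 and 0.26 without any other single array. It was 0.30 with slide as a fixed term. The interval reaches past 0.5, so that it includes a change of the size of the threshold. Pericytes also carry NG2 and fibroblasts of vessels and meninges also carry Pdgfra, and the markers of both were read beside these genes. Of 12 mural cell markers 0 were called (1 had an unadjusted limma p under 0.05), with a median change of 0.01. Of 12 fibroblast markers 0 were called (3 at an unadjusted limma p under 0.05), with a median of 0.19, changes from -0.58 to 0.67, and 0 to 3 called over the alternative settings. Their median was 0.29 when replicate 1 of 3M was left out, and it was 0.07 without replicate 3 and 0.36 without replicate 4 of 29M. The log2 of the summed intensity of the mural markers ran from 16.06 to 16.19 in 3M and from 16.03 to 16.38 in 29M, and that of the fibroblast markers from 16.53 to 16.88 and from 16.48 to 17.30. All markers in both lists were above background on every array. The part of these cells in the values of Cspg4 and Pdgfra was not tested.

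The 4 transcription factors of the lineage all had a higher mean in 29M, and no difference passed the thresholds. Olig1 came nearest. Its log2 intensities were 14.87, 14.85, 14.91 and 15.12 in 3M and 15.22, 15.11, 15.11 and 15.28 in 29M. The groups overlapped through replicate 4 of 3M alone. The change was 0.24 (SE 0.09, 95% interval 0.03 to 0.44), with an unadjusted limma p of 0.0265 and an adjusted one of 0.227. Olig2, its neighbour on the chromosome, had values of 11.91, 11.92, 11.85 and 12.09 in 3M and of 12.26, 12.17, 12.29 and 11.83 in 29M. In 29M replicates 1 to 3 lay above all young arrays and replicate 4 below them, and the change was 0.19 (SE 0.12, 95% interval -0.07 to 0.45, limma adjusted p 0.440). Without replicate 4 of 29M it was 0.30. The intervals of both Olig genes held no change of 0.5 in either direction.

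Sox10 varied most among the young arrays. It had log2 intensities of 12.87, 13.56, 13.11 and 13.87 in 3M and of 13.64, 13.45, 13.99 and 13.61 in 29M. The groups overlapped, and the change was 0.32 (SE 0.21, 95% interval -0.15 to 0.80, limma adjusted p 0.482). It was 0.93 on slide 1, which holds replicate 1 of 3M, and -0.11 and 0.16 on slides 2 and 3, and it was 0.17 without that array and 0.50 without replicate 4 of 3M. Nkx2-2 was read by 2 probes. Its brighter probe had values of 10.03, 10.71, 10.48 and 10.96 in 3M and of 11.06, 10.85, 10.68 and 10.66 in 29M. Its change was 0.27 (SE 0.19, 95% interval -0.15 to 0.68, limma adjusted p 0.512), and it was 0.10 without replicate 1 and 0.40 without replicate 4 of 3M. The dimmer probe changed by 0.35 (SE 0.18, limma adjusted p 0.367), with its highest value, 8.51, in replicate 4 of 29M, where the brighter probe was at its lowest of that group. Without that array the change of the dimmer probe was 0.17. Both probes had the same sign, and neither separated the groups.

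**Figure D3:**
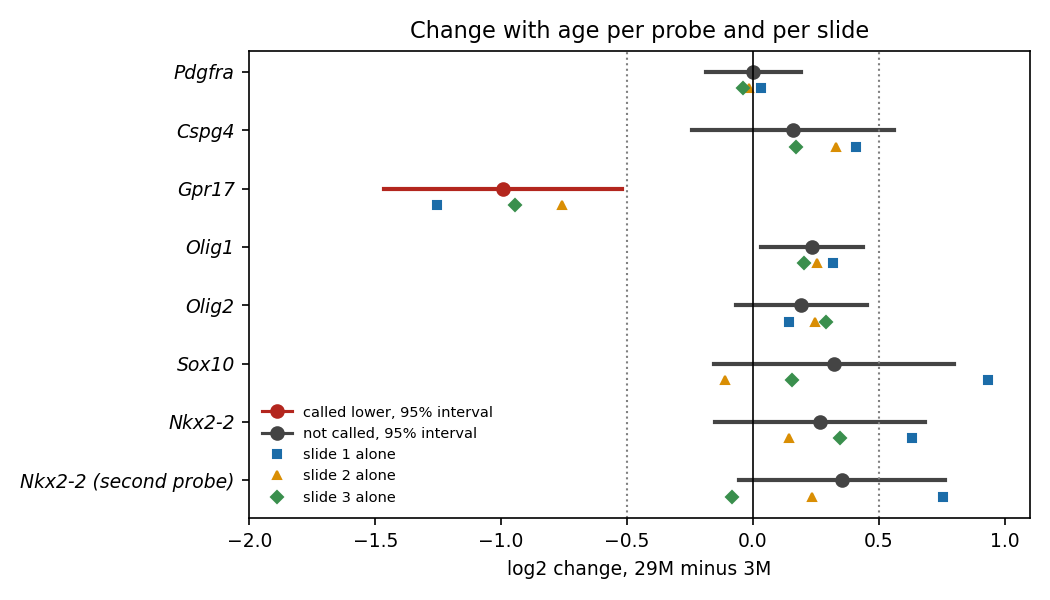
Log2 change in 29M against 3M of each member probe (horizontal axis), with the limma estimate as a circle and its 95% interval as a bar, and the difference on each slide alone as a small symbol under it. Dotted lines mark an absolute change of 0.5. The interval of Gpr17 (-1.47 to -0.52) lies wholly below 0, that of Olig1 (0.03 to 0.44) above it, and those of the other probes across it.

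The level of Gpr17 was also set against each other precursor gene within the same array. Gpr17 was taken for this because it was the called gene, so these ratios restate its fall on another scale and are given as a description, with no test. The log2 ratio of Gpr17 to Pdgfra ran from 0.64 to 1.05 in 3M and from -0.63 to 0.16 in 29M, a difference of -0.99 (SE 0.20). The ratio to Olig2, which ran from 1.49 to 1.86 and from 0.15 to 0.77, fell by 1.18 (SE 0.16). The difference was -1.23 (SE 0.29) for Olig1, -1.32 (SE 0.31) for Sox10, -1.26 (SE 0.33) for Nkx2-2 and -1.15 (SE 0.33) for Cspg4. The ratios of the age groups overlapped for Cspg4 and not for the other 5 genes.

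Other genes known from precursors were read next. Of 22 such genes 1 was lower, 0 were higher (5 had an unadjusted limma p under 0.05), and the median change was 0.00. On slides 1, 2 and 3 alone the median was -0.03, -0.10 and -0.07. The age groups did not overlap in 4 of the 22 with 29M lower and in 1 with 29M higher. Over all genes these shares were 5.22% and 6.33%. The lower gene was Cacng4, an auxiliary subunit of AMPA receptors, with a change of -0.52 (SE 0.13, limma adjusted p 0.0919). This call lay close to both thresholds and was lost in 14 of 19 alternative settings. Tnr, a matrix glycoprotein, changed by -0.36 (limma adjusted p 0.140), and its age groups did not overlap, yet it was not called. The proteoglycan gene Vcan, at -0.16, and the phosphatase gene Ptprz1, at 0.09, showed no call. Of the 5 genes for PDGF ligands and the second PDGF receptor 0 were called (1 had an unadjusted limma p under 0.05). Pdgfa, the ligand of Pdgfra, changed by -0.04 (limma adjusted p 0.874), Pdgfb by -0.11 (0.582), Pdgfc by 0.01 (0.977) and Pdgfrb by -0.06 (0.774). Pdgfd was 0.33 higher with groups that did not overlap (limma adjusted p 0.140).

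Committed precursors and newly formed oligodendrocytes share the stage at which Gpr17 is expressed. Of their 18 genes 0 were called in limma (4 had an unadjusted p under 0.05), with 9 changes up and 9 down and a median of -0.01. Enpp6, an enzyme of newly formed oligodendrocytes, was 0.52 higher (SE 0.14, limma adjusted p 0.116), and Bcas1, a marker of early myelinating cells, 0.34 higher with separate groups (0.127). Bmp4, a secreted signal of committed cells, was 0.33 higher (0.375). In the other direction, Rnf122, a ubiquitin ligase, changed by -0.44 (0.166) and Prom1, a membrane glycoprotein of progenitors, by -0.35 (0.213). One gene of the list was called higher when only probes well above background were tested, and 1 without replicate 4 of 3M. The log2 of the summed intensity of the list ran from 16.70 to 16.95 in 3M and from 16.93 to 16.99 in 29M.

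Among 23 genes of myelin and mature oligodendrocytes 4 were higher and 0 lower, with a median change of 0.21 and 20 positive signs (2 called with the replicate block). Over all genes 1.58% were called higher and 52.8% had a positive sign. Of the 23 genes, 10 had an unadjusted limma p under 0.05, beside 17.1% over all genes. The groups were separate with 29M higher in 6, beside 6.33% over all genes. The 4 called genes were Klk6, a secreted protease (3.08, limma adjusted p 0.0232), Hapln2, a link protein of the nodes of Ranvier (0.999, 0.00499), Apod, a lipid carrier (0.94, 0.0106), and Trf, which encodes transferrin (0.78, 0.0325). None of these 4 codes for a structural protein of compact myelin. Mbp (0.15, limma adjusted p 0.526) and Mog (0.17, 0.621), which code for myelin proteins, were not called, and the 3 probes of Mbp ran from -0.20 to 0.62. Ermn, a cytoskeletal gene of myelinating cells, had 1 of its 2 probes called at 0.76 while its brighter probe changed by -0.24. Of 18 other regulators of the lineage 1 was higher and 0 were lower, with a median of 0.10. Without replicate 1 of 3M the median was -0.05 and 2 were lower, and with array weights it was -0.01, also with 2 lower. The higher gene was Nkx6-2, a homeodomain factor of myelinating oligodendrocytes, with a change of 0.80 (SE 0.11, limma adjusted p 0.0106). Id2 and Id4, inhibitors of helix-loop-helix factors, changed by 0.40 and 0.14 without a call, and Myrf, a factor required for myelin genes, by 0.08. One of the 2 probes of Sox11, a factor of immature neurons and glia, was called at -0.58, and its brighter probe was not (-0.43).

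Precursors are among the cells that still divide in the adult hippocampus, together with the progenitors of the dentate gyrus. Of 14 cell cycle genes 4 were lower and 0 higher, with a median change of -0.31 (0 called with the replicate block). Over all genes 0.699% were called lower. Of the 14 genes, 8 had an unadjusted limma p under 0.05, beside 17.1% over all genes. The groups were separate with 29M lower in 6, beside 5.22% over all genes. The lower genes were Ccnb1 (-1.02, limma adjusted p 0.0189), which encodes cyclin B1, Mki67 (-0.81, 0.0257), a nuclear protein of cycling cells, Cdk1 (-0.77, 0.0642), the mitotic kinase, and Rrm2 (-0.69, 0.0266), a subunit of ribonucleotide reductase. Both probes of Mki67 were called, but only 1 of 3 for Ccnb1 and for Cdk1. The G1 cyclin Ccnd1, at 0.36, and the replication clamp Pcna, at 0.02, were not called. Which dividing cells these transcripts came from cannot be told apart in bulk tissue. Of the other cell types read, microglia had 3 of 10 markers called higher and 0 lower (median 0.37, and 1 to 5 called over the alternative settings, with 1 under the replicate block, without replicate 2 or 3 of 3M, and without replicate 1 or 2 of 29M), astrocytes 1 of 10 (Gfap) and endothelial cells 0 of 8 (2 at an unadjusted limma p under 0.05). An unadjusted limma p under 0.05 was found for 7 of the microglia and 3 of the astrocyte markers. Groups were separate with 29M higher in 5 microglia and 3 astrocyte markers, and with 29M lower in 0 and 1. Over all genes these shares were 6.33% higher and 5.22% lower. The part of microglia, astrocytes and endothelial cells in the values of Gpr17 was not tested.

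**Figure D4:**
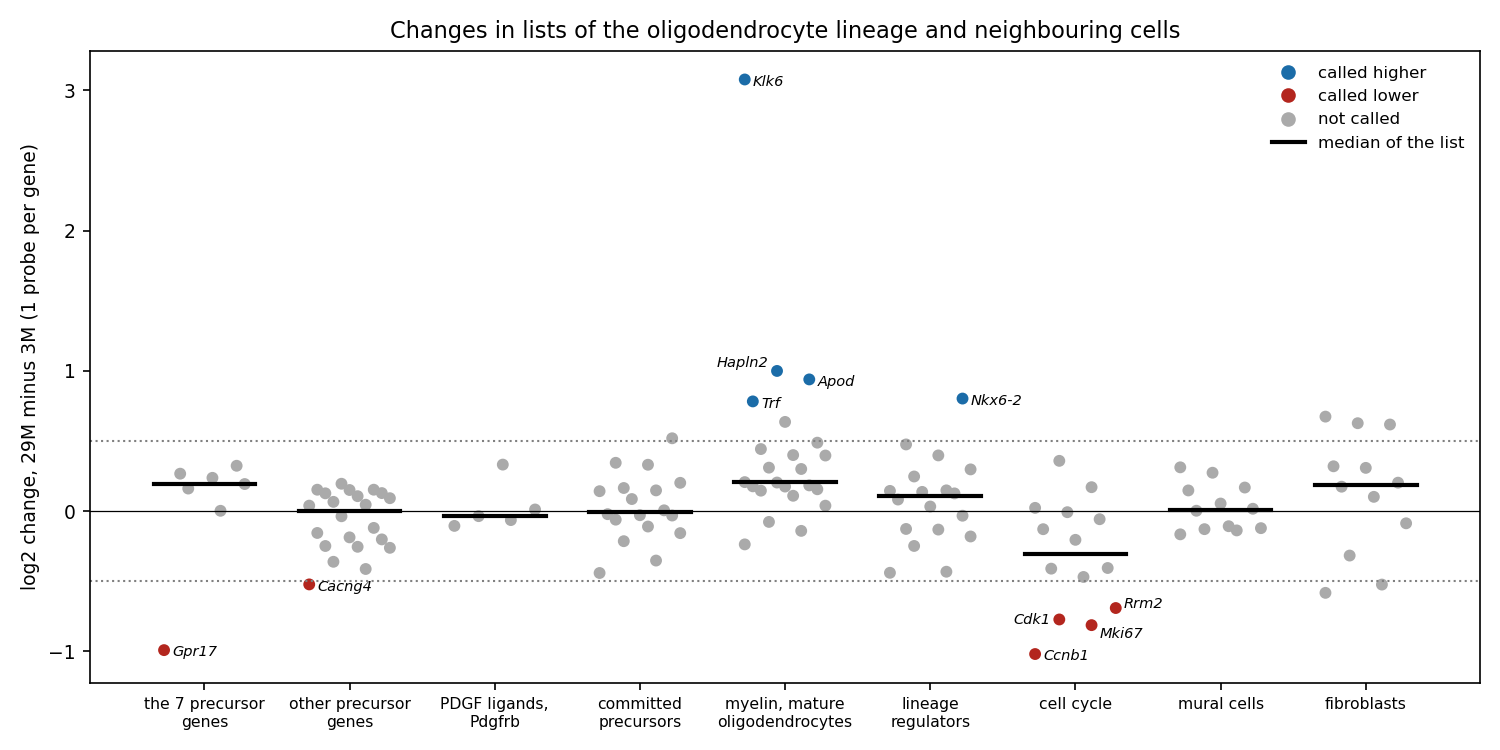
Log2 change in 29M against 3M of each gene (1 probe per gene) in the 7 precursor genes and 8 further lists, with the median of each list as a black line and dotted lines at an absolute change of 0.5. Coloured points were called and are named. Gpr17 (-0.99) is the lowest of the 7, and the called genes of mature oligodendrocytes lie between 0.78 and 3.08.

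The spread within the age groups was compared among the 7 genes, with no other gene pairs set beside them. After the mean of each group was subtracted, the 21 pairs of genes correlated over the 8 arrays with Pearson's r from -0.38 to 0.86 (median 0.31, 16 of 21 positive), which is given as a description, since all values of an array share 1 RNA sample. Gpr17 went most with Olig2 (r 0.86) and Pdgfra (0.84), and least with Olig1 (-0.38). In 29M Gpr17, Olig2 and Pdgfra were all highest in replicate 3 (deviations 0.45, 0.15 and 0.18) and lowest in replicate 4. Their r without these arrays was not computed. Cspg4 and Nkx2-2 went together (0.76), as did Sox10 and Nkx2-2 (0.70). Replicate 4 of 29M had the lowest value of its group in 5 of the 7 genes, Gpr17, Olig2, Cspg4, Nkx2-2 and Pdgfra (deviations -0.63, -0.31, -0.26, -0.16 and -0.11). Replicate 1 of 3M was low in Cspg4, Sox10 and Nkx2-2 (-0.47, -0.48 and -0.51) but not in Gpr17 (0.18).

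**Figure D5:**
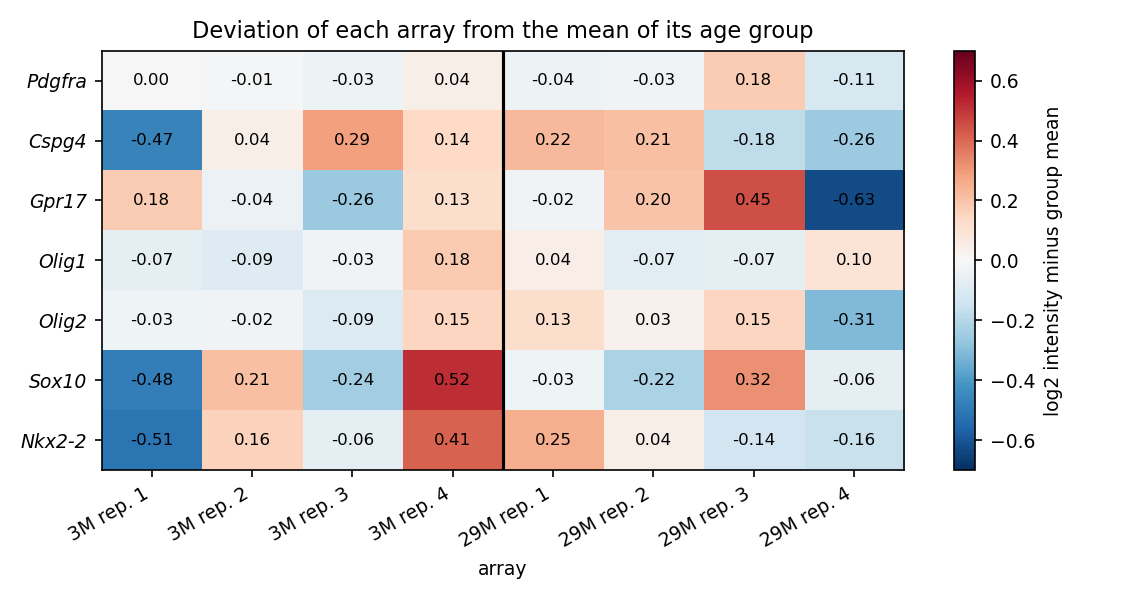
Deviation of each array (columns) from the mean of its age group for each of the 7 genes (rows), in log2 units, coloured from blue (below the mean) to red (above it). Replicate 4 of 29M is lowest in its group for 5 of the 7 genes, from -0.63 for Gpr17 to -0.11 for Pdgfra, and replicate 1 of 3M is lowest in its group for Cspg4 (-0.47), Sox10 (-0.48) and Nkx2-2 (-0.51).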

How the data were processed

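The authors deposited 1 scanner file per array, with intensity values on a linear scale and no normalization across arrays. Per the file headers these were made with Agilent Feature Extraction 10.7.3.1 (scanner G2505C, a mouse 4-array design), where the study's methods name other versions. A series-wide table was deposited too, but its 8 columns matched mean local background intensities (tolerance 0.001), in 7 of them those of another sample's array, so it was not used as expression.

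Median spot intensities without control and outlier spots were normalized by a variance stabilising model (offset and scale per array, least trimmed squares with quantile 0.9 and 7 iterations, programmed in R 4.3.3 because the original package was not installed), and spots of a probe were averaged. The scale is a generalized log2, on which changes of dim probes are understated. Age was tested in limma 3.58.1 (linear model, eBayes, Benjamini-Hochberg over 39408 probes with at least 3 usable arrays per group), with the study's normalization type and thresholds. This called 491 probes higher and 322 lower. On simulated data for this comparison (39098 probes, 200 changed), 91.5% were recovered and 12.0% of calls were false. All changes planted there were well above the threshold of 0.5, and slide differences were not simulated. The share recovered therefore does not apply to small changes, such as those of the members not called. Sample titles gave the groups and replicate numbers. RefSeq accessions (GRCm38.p6) named 26055 of 39429 probes, and the array was designed on another build, so no coordinates are given. Figures were drawn with matplotlib 3.10.9.

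Members and gene lists were chosen with earlier results of these data known. Named were all members, all PDGF genes, the called genes of each list, and genes most like the members' mean profile. Examples from the lists that were not called, and genes named for a second probe, were picked after their values were seen. Alternatives changed the background correction, the normalization, outlier spots, dim probes, slide, replicate number, variance prior, array weights, the probe per gene, the threshold, and each array in turn.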

Additional observations from a re-analysis of the deposited data

How the results depend on the processing

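Gpr17 kept its direction in all 20 alternatives. Where arrays were left out its sign was all but fixed in advance, since its age groups did not overlap. The replicate block and the variance prior left its estimate as it was. These settings therefore add no support for the direction. Of the 7 precursor genes 0 were called higher in any of 21 alternatives. The count of members called lower fell from 1 to 0 under the replicate block, with slide as a fixed term, and at an adjusted p of 0.05, and ranged from 0 to 1 when 1 array was left out. The sign of Pdgfra, whose change is near 0, was reversed with normexp and quantile normalization (-0.00697), with slide as a fixed term (-0.00674) and with array weights (-0.0101), and ran from -0.0574 to 0.0440 over the arrays left out. The other 5 members kept their sign and were never called. Over all probes, 267 were called higher and 145 lower with the replicate block, 843 and 664 with array weights, and 171 lower when processed signals went into the variance stabilising model. Leaving out 1 array gave 259 to 842 higher and 129 to 625 lower, and leaving out replicate 1 of 3M and replicate 4 of 29M together, which was chosen after seeing the data, gave 784 higher. The cause was not tested. Same-numbered arrays of the age groups deviated from their group means with r of -0.24, 0.21, -0.23 and 0.07 across probes. So few correlations cannot decide whether the replicate numbers pair the samples. With 4 arrays per group the 95% intervals of Cspg4, Sox10 and Nkx2-2 reach past 0.5, so they include a change of the threshold's size. Those of Pdgfra, Olig1 and Olig2, from the same arrays, do not.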

Other observations

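The genes whose pattern was most like the mean of the 7 precursor genes were sought among 15913 genes above background on all arrays. With 8 arrays and so many genes high correlations arise readily, and they are given as a description. After group means were subtracted, the nearest were Cryab (Pearson's r 0.99), a small heat shock protein, Hhip (0.98), an inhibitor of hedgehog signalling, Efcab12 (0.96), Meox1 (0.96), a homeobox factor, and Cdc42ep2 (0.96), an effector of the GTPase Cdc42. Without the 2 arrays farthest out, replicate 4 of 29M and replicate 1 of 3M, r was 0.97, 0.94, 0.88, 0.95 and 0.96. The remaining arrays had also served to pick the genes, so such values are no independent check. Of these genes Meox1 was called higher in 29M (log2 change 0.62, limma adjusted p 0.0257). With age left in, the nearest were Tex48, the phosphatase gene Dusp15, Aldh2, Usp21 and Slc34a1 (r from 0.92 to 0.93), which changed by between -0.03 and 0.08 with age, and r was between 0.77 and 0.85 without the same 2 arrays.

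No member probe and no list had an array far from the other 3 of its group by Dixon's test (44 groups of values examined, where chance gives about 2.20).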
